A study of Mus musculus with 12 samples.

Results

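Epx, Prg2, Prg3 and Ccr3 are 4 of the 754 genes measured in RNA that came from femur marrow cells of mice, sorted and labelled as HSCs. They were taken by name, as 3 genes of eosinophil granule proteins and a chemokine receptor gene of eosinophils, with earlier results of these data known. The group was selected on the levels of Prg2 and Prg3 after ICH in both genotypes, which were among those results. The difference between genotypes after ICH, and the interaction that contains it, are therefore given for these genes as a description with no test. The same ICH libraries enter both comparisons of ICH with sham, so the p-values of these genes there are not independent of the choice.

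Eosinophils are granulocytes that mature in the bone marrow from myeloid progenitors and then leave for the blood and tissues. Their large granules hold the major basic protein, encoded by Prg2, its homologue encoded by Prg3, and the eosinophil peroxidase encoded by Epx, which makes oxidants from halides. These genes are transcribed most strongly while the granules are being built in marrow precursors, whereas Ccr3 encodes the receptor through which the eotaxins attract mature eosinophils.

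The 4 groups held 3 male mice each, in the order Adrb3-/- ICH, Adrb3-/- sham, wild-type ICH and wild-type sham, with marrow taken on day 3 after surgery. Adrb3-/- mice lack the beta-3 adrenergic receptor, and the wild-type mice were of the C57/BL6 strain. The design counts 6 mice of each genotype for the 12 libraries, and each library was read as a single mouse. Neither the sort gate nor the age of the mice is stated in the labels, and the deleted gene itself was not analysed here.

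The unit of every level below is the deposited value, a count of molecules multiplied by 1 factor per library. Since probes differ in efficiency, levels were compared between libraries and never between genes. Wild-type sham replicate 1, a failed reaction, is shown apart: its genes summed to 24775 counts, against 110740 to 556406 in the other 11 libraries, and its values correlated with theirs across genes at r of 0.0902 to 0.169. There Prg2 had a value of 899.6 from 58 counts, Epx and Prg3 had 403 from 26 counts each and Ccr3 had 310.2 from 20 counts, and Prg2 alone was above that library's background of 44.6 counts. Of the 11, Adrb3-/- ICH replicate 2 was the shallowest, with 243 genes under 20 counts, and 20 counts there were worth a value of 103. Adrb3-/- ICH replicate 1 had the highest background, 64.4 counts, where background is the mean plus 2 SD of the 8 negative control probes. The label of the cells was set against marker genes. Of the 9 stem and progenitor markers looked for, 3 were measured, and of these Kit was above background in 10 of the 11 libraries and Cd34 and Flt3 in all 11. The exception was Adrb3-/- ICH replicate 1, with Kit under 20 counts. There the 3 markers summed to 467, with Kit entered as 20, against 484 to 2597 in the other 10. All 7 measured markers of mature neutrophils, 3 of promyelocytes and 9 of macrophages were also above background in all 11, so the sorted cells did not lack RNA of other marrow cells. In Adrb3-/- sham replicate 3 the summed value of the 7 neutrophil markers was 91512, against 252472 to 515512 in the other 10. In RNA of mixed cells, fewer cells of a type and less RNA per cell cannot be told apart.

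Prg2 and Prg3 both lie on chromosome 2 with 1 annotated gene between them, while Epx lies on chromosome 11 and Ccr3 on chromosome 9 (RefSeq, GRCm38.p6). RefSeq promoter sequence was at hand for 3 of the 4 genes. The 250 bases before the start of Epx (chr11:87875537-87875786, minus strand), Prg3 (chr2:84987965-84988214, plus strand) and Ccr3 (chr9:124021721-124021970, plus strand) are shown, as was planned for each of the 4 genes. Capitals mark GATAA, the core of the site of GATA factors, or its reverse complement TTATC.
Epx: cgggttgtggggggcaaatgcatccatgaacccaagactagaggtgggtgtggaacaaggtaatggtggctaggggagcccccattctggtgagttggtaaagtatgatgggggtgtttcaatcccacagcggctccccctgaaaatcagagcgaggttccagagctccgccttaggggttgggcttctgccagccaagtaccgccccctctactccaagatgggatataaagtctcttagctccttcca
Prg3: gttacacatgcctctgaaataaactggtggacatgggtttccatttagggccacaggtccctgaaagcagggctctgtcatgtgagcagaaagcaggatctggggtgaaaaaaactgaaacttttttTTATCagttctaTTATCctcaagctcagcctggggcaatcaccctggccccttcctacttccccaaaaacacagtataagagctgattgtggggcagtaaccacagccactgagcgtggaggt
Ccr3: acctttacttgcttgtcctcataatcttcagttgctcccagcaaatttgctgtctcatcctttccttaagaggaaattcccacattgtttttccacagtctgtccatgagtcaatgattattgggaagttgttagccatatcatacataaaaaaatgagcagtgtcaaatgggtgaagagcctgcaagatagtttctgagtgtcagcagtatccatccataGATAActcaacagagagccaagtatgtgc
The window of Prg3 held 2 such matches, at 123 to 119 and 111 to 107 bases before the start, that of Ccr3 held 1 at 29 to 25, and that of Epx held 0. Of 32851 mouse promoter windows of this length, 22.6% held at least 1. ATTGC, a half-site of C/EBP factors, occurred once on either strand before Prg3 (23.1% of all windows held it), and GAGGAA, a core of PU.1 sites, once before Ccr3 (23.3%). A match is a run of letters in this window and no evidence of binding.

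Prg2 was high in a pair of wild-type libraries, 1 of each treatment, and lower in every Adrb3-/- library than in any wild-type ICH library. It had values of 856, 1032 and 709.9 in Adrb3-/- ICH libraries and 1349, 2184 and 1327 in Adrb3-/- sham libraries. It had 2751, 2221 and 6784 in wild-type ICH libraries and 5718 and 1036 in wild-type sham libraries. The 6 Adrb3-/- libraries reached at most 2184, just under the lowest wild-type ICH library, and wild-type sham replicate 3 lay among them. The group means were 866 ± 161 for Adrb3-/- ICH, 1620 ± 489 for Adrb3-/- sham, 3919 ± 2496 for wild-type ICH (SD, n = 3 each) and 3377 ± 3311 for wild-type sham (SD, n = 2). The wild-type groups differed from each other by less than their spread.

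Epx showed the same order of libraries at its top. It had values of 76.8, 108 and 77.5 in Adrb3-/- ICH libraries and 113, 138 and 121 in Adrb3-/- sham libraries. It had 213, 156 and 673 in wild-type ICH libraries and 607 and 92.9 in wild-type sham libraries. The same pair of wild-type libraries stood highest, and the Adrb3-/- libraries and wild-type sham replicate 3 again formed the low end. The means were 87.5 ± 18.1 in Adrb3-/- ICH, 124 ± 13.1 in Adrb3-/- sham, 347 ± 283 in wild-type ICH (SD, n = 3 each) and 350.1 ± 364 in wild-type sham (SD, n = 2).

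Prg3, whose protein is a homologue of the major basic protein, had values of 80.6, 119 and 64.5 in Adrb3-/- ICH libraries and 109.9, 108 and 94.6 in Adrb3-/- sham libraries. It had 209 in wild-type ICH replicate 1, 139 in replicate 2 and 457 in replicate 3, and 338 and 122 in the wild-type sham libraries. Here every Adrb3-/- library was below every wild-type library by deposited value, with a narrow gap between 119 and 122. The 119, in Adrb3-/- ICH replicate 2, came from 23 counts, with a 95% Poisson interval of 75.3 to 178. In Adrb3-/- ICH replicate 1 Prg3 was under a background worth a value of 124, above that gap. A full separation of the genotypes is therefore not read from these values. The means were 87.9 ± 27.8 in Adrb3-/- ICH, 104 ± 8.35 in Adrb3-/- sham, 269 ± 167 in wild-type ICH (SD, n = 3 each) and 229.7 ± 153 in wild-type sham (SD, n = 2).

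Ccr3, the eotaxin receptor gene, had another order of groups, with the Adrb3-/- sham libraries at the top. It had values of 117, 145 and 103 in Adrb3-/- ICH libraries and 296, 313 and 622 in Adrb3-/- sham libraries. It had 205, 200.4 and 219 in wild-type ICH libraries and 264 and 120.2 in wild-type sham libraries. The pair of wild-type libraries that were highest in the granule genes had 219 and 264 of Ccr3, under every Adrb3-/- sham library. Among the wild-type libraries the pair was still the highest. The means were 122 ± 21.0 in Adrb3-/- ICH, 409.9 ± 184 in Adrb3-/- sham, 208 ± 9.63 in wild-type ICH (SD, n = 3 each) and 192 ± 101 in wild-type sham (SD, n = 2). The wild-type groups were next to each other in this order. Their means differed by less than the SD of the wild-type sham group (101), though by more than that of the wild-type ICH group (9.63).

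**Figure D1:**
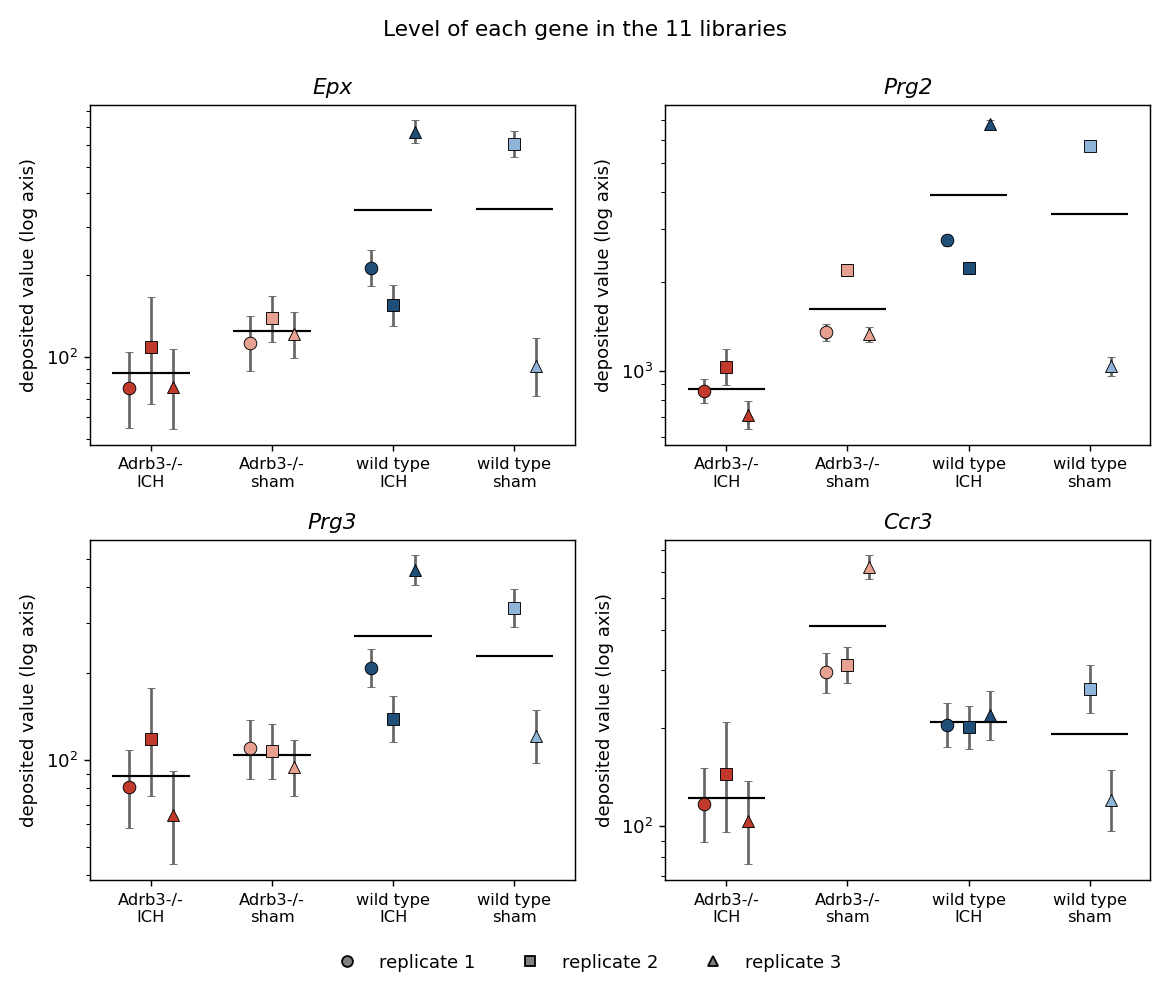
Deposited value (log axis) of Epx, Prg2, Prg3 and Ccr3 in each of the 11 libraries by group, with exact 95% Poisson intervals of the count as bars and the group mean as a line. Wild-type ICH replicate 3 (Prg2 at 6784) and wild-type sham replicate 2 (5718) stand above the rest in the 3 granule genes, and Adrb3-/- sham replicate 3 (622) in Ccr3.

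The spread between mice was larger than counting error for all 4 genes. Within groups the SD of log2(value + 1) was 0.84 for Prg2, against a counting error of 0.05 on the same scale, and 0.95 against 0.18 for Epx. It was 0.65 against 0.18 for Prg3 and 0.46 against 0.15 for Ccr3. Epx varied more within groups than 95.7% of the 674 genes kept, Prg2 more than 93.3%, Prg3 more than 75.7% and Ccr3 more than 49.7%. The counts behind these values ran from 200 to 4186 for Prg2, 21 to 415 for Epx, 23 to 282 for Prg3 and 28 to 539 for Ccr3. The intervals cover counting error only.

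Prg2 was above background in all 11 libraries, by a factor of 6.92 in Adrb3-/- ICH replicate 1 at the least and 173 in wild-type ICH replicate 3 at the most. Epx, Prg3 and Ccr3 were above it in 10 of 11. The exception was Adrb3-/- ICH replicate 1, with 40 counts of Epx, 42 of Prg3 and 61 of Ccr3 against a background of 64.4. In Adrb3-/- ICH replicate 2, Epx had 21 counts and Prg3 had 23, at the edge of the 20 counts below which the table gives no level. Still lower levels of Epx and Prg3 were not measurable in these libraries, above the high background of replicate 1 (450282 counts in all) or at the low depth of replicate 2 (110740).

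**Figure D2:**
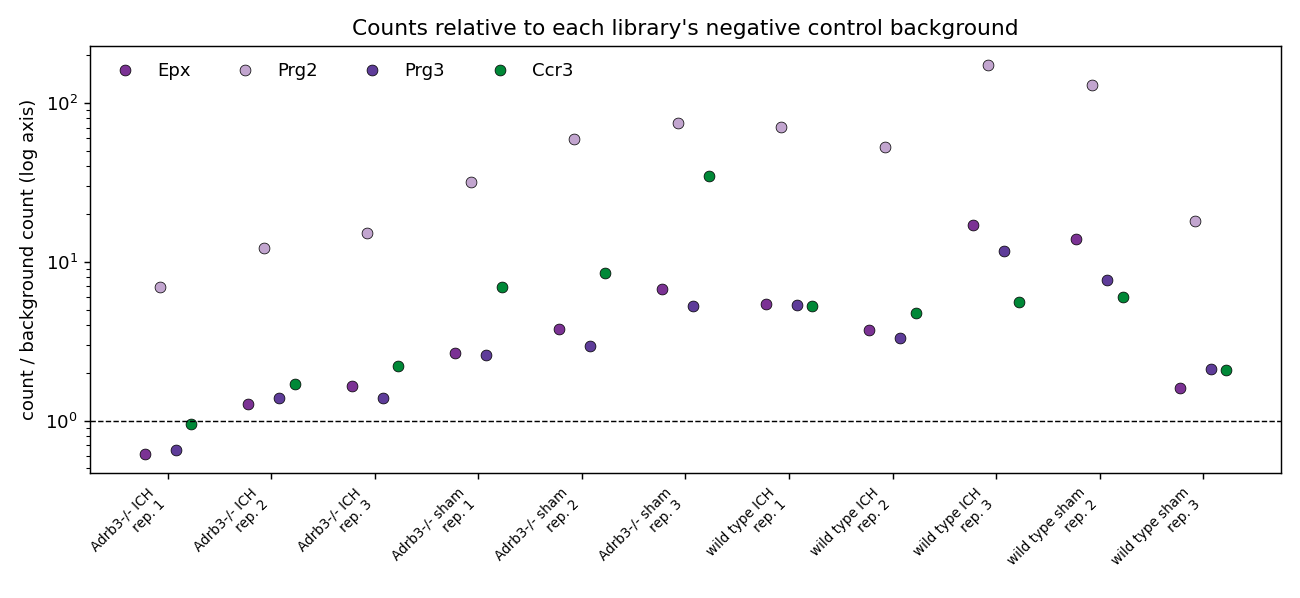
Count of each gene divided by the background count of its library (log axis), for the 11 libraries, with the dashed line at 1. Prg2 lies well above the line throughout (6.92 at the least), while Epx, Prg3 and Ccr3 lie under it in Adrb3-/- ICH replicate 1 and near it in the other Adrb3-/- ICH libraries.

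The ratio of Prg2 to the other granule genes varied less from mouse to mouse than Prg2 itself. Over the 11 libraries the ratio of Prg2 to Epx ran from 9.17 to 15.8, a range of 1.72-fold, although Prg2 itself spanned 9.56-fold and Epx 8.76-fold. The ratio of Prg2 to Prg3 ran from 8.52 to 20.2, or 2.37-fold, where Prg3 spanned 7.08-fold. Of these libraries, Adrb3-/- ICH replicate 1 had Epx and Prg3 under background and replicate 2 had both near 20 counts. Outside the Adrb3-/- ICH libraries the ratio of Prg2 to Epx ran from 9.42 to 15.8 and that of Prg2 to Prg3 from 8.52 to 20.2. The ratio of Prg2 to Ccr3 ran from 2.13 in Adrb3-/- sham replicate 3 to 31.0 in wild-type ICH replicate 3, or 14.5-fold. Pearson's r of log2(value + 1) across the 11 libraries was 0.97 for Epx with Prg2 (Spearman's rho 0.97), 0.96 for Epx with Prg3 (rho 0.82) and 0.94 for Prg2 with Prg3 (rho 0.85). It was 0.39 for Prg2 with Ccr3 (rho 0.57), 0.32 for Epx with Ccr3 (rho 0.59) and 0.20 for Prg3 with Ccr3 (rho 0.21). Wild-type ICH replicate 3 and wild-type sham replicate 2 were the libraries farthest from the median of Prg2. Without them r was 0.96 for Epx with Prg2 (rho 0.95), 0.87 for Epx with Prg3 (rho 0.67) and 0.81 for Prg2 with Prg3 (rho 0.73). It was then 0.50 for Prg2 with Ccr3 (rho 0.68), 0.49 for Epx with Ccr3 (rho 0.72) and 0.18 for Prg3 with Ccr3 (rho 0.22). By rank, Epx and Prg2 were thus about as close to Ccr3 as to Prg3 in these libraries. With group means removed r over the 11 libraries was 0.98, 0.95 and 0.92 for the granule pairs in the same order. For Ccr3 it was 0.52 with Prg2, 0.58 with Epx and 0.48 with Prg3. These 6 pairs are a description with no p-value, since the genes were chosen with their values known, and genes of 1 library share its scaling and depth.

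**Figure D3:**
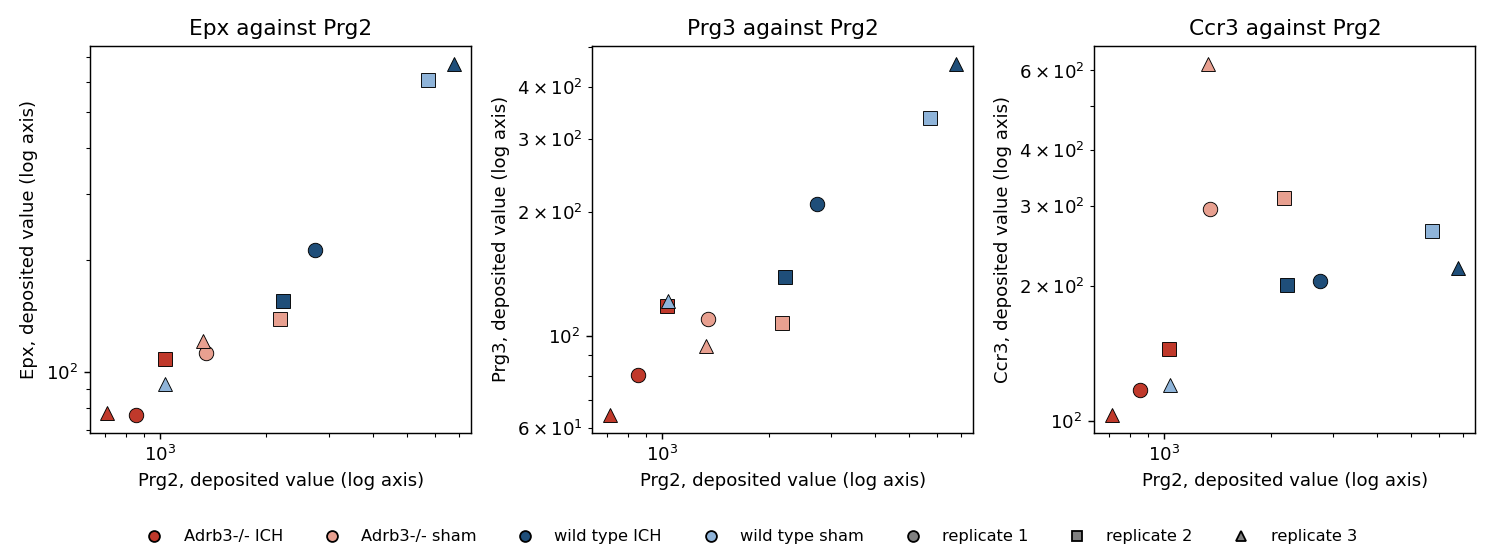
Deposited values of Epx, Prg3 and Ccr3 against Prg2 (both axes log), 1 point per library, coloured by group. Epx and Prg3 climb with Prg2 (r = 0.97 and 0.94, n = 11), whereas Ccr3 is highest in Adrb3-/- sham replicate 3, where Prg2 was 1327.

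Among 490 other genes above the floor of 20 counts in all 11 libraries, Epx and Prg3 ranked 1 and 2 by r with Prg2, and Ccr3 ranked 74. The 5 next to Epx and Prg3 were Ear3 (r = 0.91) and Ear6 (0.90), genes of eosinophil-associated ribonucleases, Hprt (0.80), a purine salvage gene, Cdc20 (0.73), an activator of mitotic protein breakdown, and Saa1 (0.71), an acute-phase gene. Ear6 had values of 157, 165 and 169.96 in Adrb3-/- ICH libraries, 134, 188 and 148 in Adrb3-/- sham libraries, 268, 207 and 955 in wild-type ICH libraries and 691 and 102 in wild-type sham libraries. Ear3 had 299, 320.04 and 290.4 in Adrb3-/- ICH libraries, 471, 389 and 529 in Adrb3-/- sham libraries, 533, 411 and 1074 in wild-type ICH libraries and 1251 and 353 in wild-type sham libraries. Both were highest in the same pair of wild-type libraries as Prg2. The Ear family holds near-identical copies that a probe may not tell apart, so which copy was counted is uncertain. Within groups, r with Prg2 was 0.97 for Ear6 and 0.89 for Ear3, and Hprt, Cdc20 and Saa1 were no longer among the 5. Without the same pair of libraries r was 0.64 for Ear6 and 0.72 for Ear3.

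The genes nearest to Ccr3 were of another kind, a comparison added after the values were seen. The 5 highest of 490 were Mrc1 (r = 0.96), the mannose receptor of macrophages, the adhesion molecule gene Vcam1 (0.96), Adgre1 (0.95), which encodes the macrophage antigen F4/80, and the complement genes C1qc and C1qa (0.94 each). All 9 macrophage markers of the list had r with Ccr3 between 0.62 (Csf1r) and 0.96, and with Prg2 between 0.17 (Cd68) and 0.54 (C1qa). With group means removed the ranges overlapped, at 0.21 (Csf1r) to 0.94 (Mrc1) with Ccr3 and 0.08 (Csf1r) to 0.65 (C1qa) with Prg2, and r was higher with Ccr3 for each of the 9. Mrc1 had values of 153, 201 and 103 in Adrb3-/- ICH libraries and 704, 704 and 1299 in Adrb3-/- sham libraries. It had 263, 209.6 and 264 in wild-type ICH libraries and 374 and 176 in wild-type sham libraries. Adrb3-/- sham replicate 3 was highest in both genes and Adrb3-/- ICH replicate 3 lowest in both. Without these libraries, the farthest from the median of Ccr3, r was 0.91 for Mrc1 and 0.97 for Vcam1, and with group means removed 0.94 and 0.85. Across libraries these r values are a description, over points that share groups, scaling and depth.

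**Figure D4:**
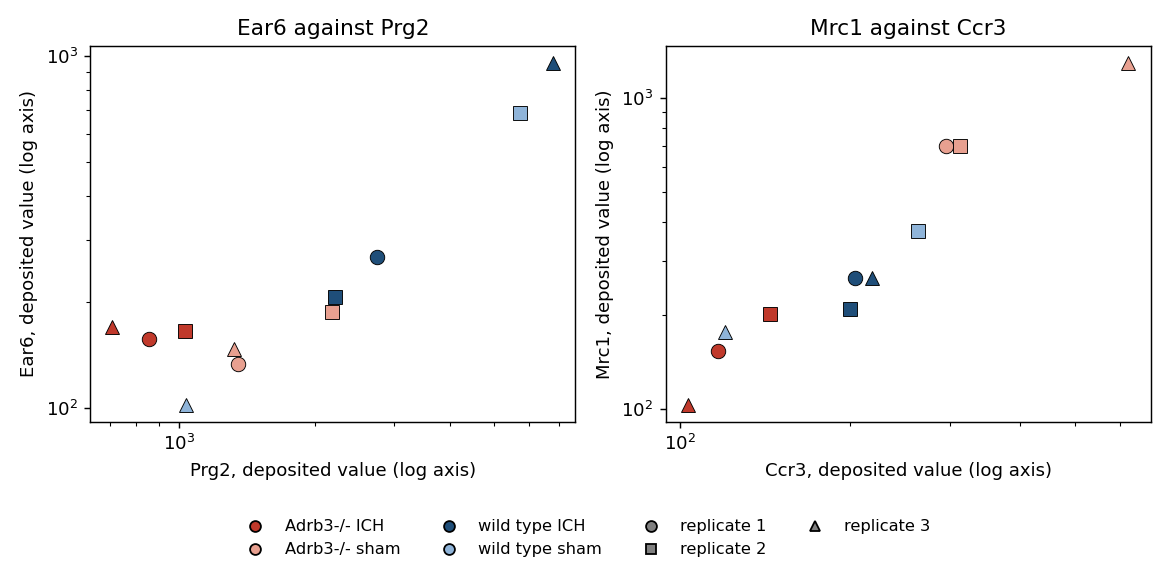
Left, Ear6 against Prg2, and right, Mrc1 against Ccr3 (deposited values, log axes), 1 point per library, coloured by group. Ear6 is high where Prg2 is high (r = 0.90, n = 11), and Mrc1 follows Ccr3 over all groups (r = 0.96).

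Among ICH mice, the genotypes were compared to see how marrow cells differed where the receptor was missing. All 4 genes were lower in Adrb3-/- ICH libraries, with no overlap between the groups. The log2 change, on the log2(value + 1) scale, was -2.01 (SE 0.60) for Prg2, -1.69 (SE 0.66) for Epx, -1.47 (SE 0.48) for Prg3 and -0.78 (SE 0.36) for Ccr3, against a median of -0.14 for all genes. Counted from the lowest, Prg2 ranked 2, Epx 5, Prg3 15 and Ccr3 134 of 674 genes. Of all genes kept, 8.75% were lower and 4.9% higher without overlap, and 0% passed limma's test at an adjusted p of 0.05, with 72 at an unadjusted p under 0.05. These values were in view when the genes were chosen, so nothing is read from them. With the mean of the negative controls subtracted, an alternative chosen after seeing the data, the change of Epx was -2.29. Without wild-type ICH replicate 3 it was -1.07, that of Prg2 -1.53 and that of Prg3 -0.996. The summed value of the 9 macrophage markers was also lower, at 1046 to 2644 in Adrb3-/- ICH against 3321 to 4484 in wild-type ICH libraries, and its part in the values of Ccr3 was not tested.

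The genotypes were also compared among sham-operated mice, with libraries that the preceding comparison did not use. No gene of the 4 passed, and 0% of the 674 genes tested did (limma), while 32 had an unadjusted p under 0.05. Ccr3 had a log2 change of 1.11 (SE 0.40, 95% interval 0.22 to 1.998, adjusted p = 0.968) and was higher in 3 of 3 Adrb3-/- sham libraries than in both wild-type ones. Prg3 had -0.96 (SE 0.53, adjusted p = 0.992), with all 3 Adrb3-/- libraries below both wild-type ones, while Epx at -0.94 (SE 0.74) and Prg2 at -0.63 (SE 0.67) overlapped between groups (adjusted p = 0.992 each). Of all genes, 10.4% were higher and 16.3% lower without overlap, and the median change was -0.10. Without wild-type sham replicate 2 the change was 0.41 for Epx, 0.60 for Prg2, -0.22 for Prg3 and 1.67 for Ccr3. Without wild-type sham replicate 3 it was -2.29 for Epx, -1.86 for Prg2, -1.69 for Prg3 and 0.55 for Ccr3. Markers of other granulocytes also had negative changes here, none past the test. They were 7 of 7 neutrophil markers (median -0.56), 3 of 3 promyelocyte markers (-0.84) and 3 of 3 mast cell and basophil markers kept (-0.85). Between genotypes after ICH, 7 of 7 neutrophil markers had a positive change instead (median 0.37), none past the test. There 2 of 3 promyelocyte markers (median -0.15) and 2 of 3 mast cell and basophil markers (-0.07) were negative. The neutrophil markers summed to 91512 to 359684 in Adrb3-/- sham libraries, against 442332 and 447468 in wild-type sham libraries, with no overlap. Their part in the values of the granule genes was not tested. The macrophage markers summed to 6647 to 12922 in Adrb3-/- sham libraries, against 2193 and 4727 in wild-type sham libraries, and 9 of 9 had a positive change with a median of 1.44, none past the test. Their part in the level of Ccr3 was not tested.

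Within Adrb3-/- mice, ICH was set against sham surgery, using the same Adrb3-/- libraries as the comparisons of genotypes. The levels of Prg2 and Prg3 after ICH were in view when the genes were chosen. The p-values and overlaps of the 4 genes here are therefore a description and no independent support. Ccr3 had the largest difference of the 4, a log2 change of -1.67 (SE 0.36, 95% interval -2.47 to -0.88), with 3 of 3 ICH libraries below all sham libraries, and did not pass (limma, adjusted p = 0.0686). Prg2 had -0.88 (SE 0.60, adjusted p = 0.578) and Epx -0.51 (SE 0.66, adjusted p = 0.853), both without overlap between groups, and Prg3 -0.28 (SE 0.48, adjusted p = 0.892) with overlap. For Epx the gap lay between 108, from 21 counts in ICH replicate 2, and 113 in the lowest sham library. Epx in ICH replicate 1 was under a background worth 124, above that gap, so its lack of overlap is not read. Of the 674 genes 1.04% passed, 7 genes in all and each lower after ICH, and 10.2% were lower and 1.63% higher without overlap. The median change of all genes was -0.16. Ccr3 passed with log2(value + 20) (adjusted p = 0.0421), with the negative control mean subtracted (-2.08, adjusted p = 0.0400) and without wild-type sham replicate 2 or 3 (0.0395 each), and had an adjusted p of 0.0501 to 0.293 under the other alternatives. Among the 9 macrophage markers, 4 fell and none rose, with a median change of -2.40. The 4 were Mrc1 (-2.54, SE 0.37, adjusted p = 0.0227), Vcam1 (-2.61, SE 0.48, 0.0395), and Adgre1 (-1.65) and the scavenger receptor gene Cd163 (-2.14), both at 0.0483. None of these calls held with all 12 libraries, with only the groups compared, with array weights, with the replicate block, or without Adrb3-/- sham replicate 2 or 3 or any 1 wild-type ICH library, each of which left 0 genes past the threshold. The summed value of the 9 markers was 1046 to 2644 in ICH libraries, against 6647 to 12922 in sham libraries, and its part in the value of Ccr3 was not tested.

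Within wild-type mice, ICH was set against sham surgery in the same way. Here too the ICH levels of Prg2 and Prg3 were known beforehand, so the p-values of the 4 genes are no independent test. The changes of the 4 genes were small against their errors: 0.51 (SE 0.67) for Prg2, 0.24 (SE 0.74) for Epx, 0.23 (SE 0.53) for Prg3 and 0.22 (SE 0.40) for Ccr3, each with an adjusted p of 0.9999 (limma). The groups overlapped for all 4, where 14.1% of all genes were lower and 3.12% higher without overlap, and 0% of 674 genes passed, with 0 at an unadjusted p under 0.05 and 13 with 12 libraries. The 95% interval of the change of Prg2 ran from -0.97 to 1.99, so with 3 and 2 libraries no change within that range was excluded. Without wild-type sham replicate 3 the changes were -0.72 for Prg2, -1.11 for Epx, -0.51 for Prg3 and -0.34 for Ccr3. Without wild-type sham replicate 2 they were 1.74, 1.59, 0.96 and 0.78. As a description, the change after ICH in Adrb3-/- mice minus that in wild-type mice was -1.89 (SE 0.54) for Ccr3, -1.39 (SE 0.89) for Prg2, -0.75 (SE 0.996) for Epx and -0.51 (SE 0.71) for Prg3, and 0% of genes passed in this interaction.

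**Figure D5:**
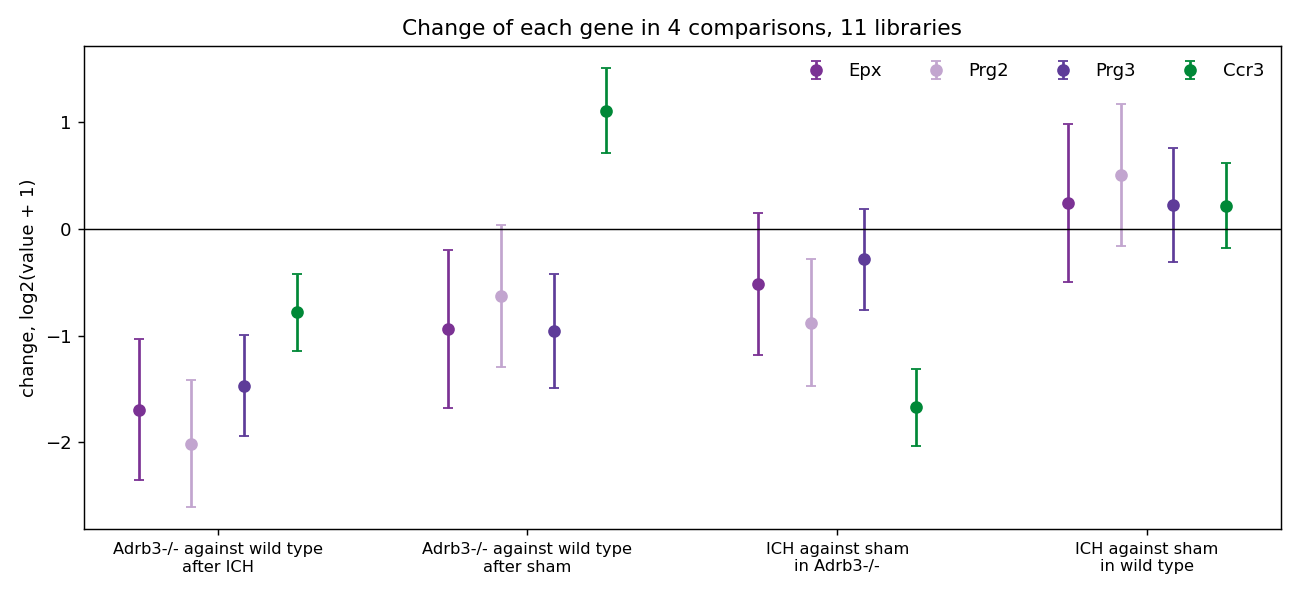
Log2 change of the 4 genes in each comparison (11 libraries), with bars of 1 SE. The granule genes are negative in both comparisons of genotypes, while Ccr3 is at 1.11 between genotypes after sham and at -1.67 for ICH in Adrb3-/- mice. Each comparison shares libraries with 2 of the others.

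Other genes of the eosinophil pathway were taken from lists by role, and none passed in any of the comparisons. Of the growth factor receptors, Il5ra, the interleukin-5 receptor chain that eosinophil precursors depend on, had values of at most 87.3 and was above background in 8 of 11 libraries. Il3ra and Csf2ra were also measured, and Csf2ra, the receptor chain for granulocyte-macrophage colony-stimulating factor, ran from 167 to 439. No change of Il5ra or Il3ra is given for Adrb3-/- ICH mice, since Il3ra was under 20 counts in replicate 2 and Il5ra in replicates 1 and 2, where the table holds 20 in place of a level. Of the CCR3 ligands, 5 were measured and 3 kept, and the eotaxin gene Ccl24 had at most 99.9 and was above background in 8 of 11 libraries. The cytokine gene Il5 was under 20 counts in all 11 libraries, and Il4, Il13 and Il33 had values of at most 144. In Adrb3-/- ICH replicate 2, where 20 counts were worth 103, Il4, Il13, Il33, Ccl5 and Ccl24 were all under 20 counts, and in replicate 1 they were under background, so no change is given for them.

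Of the transcription factors of the lineage, all 6 measured were kept. Gata1, which eosinophil formation requires, ran from 118 to 211, with a change of -0.0015 (SE 0.24) between genotypes after ICH and 0.15 (SE 0.27) after sham. Gata2 ran from 86.3 to 807 and had 0.60 (SE 0.75) and 0.89 (SE 0.84) in these comparisons, and Cebpa, a factor of the granulocyte lineages, had 0.13 (SE 0.23) and -0.06 (SE 0.26). The 86.3 of Gata2 was Adrb3-/- ICH replicate 1, with 45 counts under a background of 64.4, against 676 and 807 in replicates 2 and 3. The change of Gata2 after ICH is therefore not read. The median of the 6 was 0.07 after ICH, where the median of all genes was -0.14. Siglecf, a surface lectin of mature eosinophils, ran from 40.3 to 175, and the pair of wild-type libraries highest in Prg2 had 144 and 165, within the range of the other libraries. Of the 9 measured genes in the list of other eosinophil genes 8 were kept, with 5 of 8 negative after ICH between genotypes and 6 of 8 after sham, where 59.5% and 62.0% of all 674 genes were negative. Of those 5, Alox15 was under 20 counts in Adrb3-/- ICH replicates 1 and 2, and Ptgdr2 in replicate 2. In replicate 1 Ptgdr2 (36 counts) and Siglecf (21) were under background. These genes are therefore not read as lower after ICH. Ear6 was in this list and stood at -1.19 (SE 0.68) and -0.78 (SE 0.76).

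Markers of other granulocytes were set beside these genes. Of 6 measured mast cell and basophil markers 3 were kept, and all 6 together summed to 543 to 617 in Adrb3-/- ICH, 336 to 702 in Adrb3-/- sham, 572 to 728 in wild-type ICH and 748 to 903 in wild-type sham libraries. Cma1, a mast cell chymase gene, was under 20 counts in 8 of 11 libraries and Ms4a2, a chain of the IgE receptor, in 3. Promyelocyte markers summed to 10197 to 16940 in Adrb3-/- ICH against 12704 to 17485 in wild-type ICH libraries, which overlap, and to 6926 to 18235 in Adrb3-/- sham against 17157 and 25204 in wild-type sham libraries, which overlap too.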

How the data were processed

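Total RNA of sorted cells was measured in 12 mouse libraries of 4 groups. The authors deposited 1 table of signal values with 754 genes, 8 negative and 6 positive control probes; neither instrument nor scaling is stated there. The values show every gene as a whole count times 1 factor per library (whole within 0.00540 up to 1000 counts), genes under 20 counts carry an unscaled 20, and control probes are unscaled counts. No count model was used, since values at 20 cannot be turned back. Wild-type sham replicate 1 was left out, which leaves n = 2 in that group, and a fit with 12 libraries was an alternative. The filter kept genes with an average above 52.2 in the 11 libraries, the mean of each library's background (mean plus 2 SD of the negative controls, scaled): 674 genes and all 4 members. Group means of log2(value + 1) were fitted with limma 3.58.1 (lmFit, eBayes) in R 4.3.3, with 7 residual degrees of freedom, two-sided tests and Benjamini-Hochberg adjustment over 674 genes at 0.05; the fit was tested on simulated data. Members and lists were chosen with earlier results of these data known. Genes were named as members, as members of role lists, as the 5 with the highest r with Prg2, or as marker genes. Replicates of a group differed beyond sampling noise (chi-square over its degrees of freedom at least 7.34). P-values measure the spread between these libraries. Replicate numbers did not pair the libraries: same-numbered libraries correlated at -0.42 to 0.15 in their deviations from group means. Cd244a was matched through its older name Cd244. The alternatives tried are in the closing section.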

Additional observations from a re-analysis of the deposited data

Results flagged for a closer look

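Wild-type sham replicate 1, which entered no comparison, gave a Prg2 signal above its own background: a value of 899.62, from 58 counts against a background of 44.6 counts. Epx and Prg3 (26 counts each) and Ccr3 (20 counts) were under it. Genes of the lists lay on either side of it, and Siglecf (66 counts), Id1 (58) and Cma1 (50) were among those above. Cma1 was under 20 counts in 8 of the other 11 libraries. The share of all genes above that background was not counted, so nothing particular to Prg2 is read from its signal. In that library 1 count was scaled to a value of 15.5.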

How the results depend on the processing

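Of 436 recomputed changes of the 4 genes, 412 kept their direction and their side of the threshold, or moved by less than the spread within groups where no test was made. With all 12 libraries, the change for ICH in wild type was -0.0111 for Epx, -0.10 for Prg3 and -0.0449 for Ccr3, and 0 genes passed for ICH in Adrb3-/-. For ICH in Adrb3-/-, Ccr3 passed with log2(value + 20) (-1.53) and with the negative control mean subtracted (-2.08), where its interaction was -2.36. In that comparison 2 genes passed with no filter, 4 with the filter on 12 libraries, 13 with log2(value + 20), 1 with median centring, and 0 with only the groups compared, array weights or the replicate block. With no filter 2 genes passed between genotypes after ICH. The causes were not tested. The block moved no member across the threshold: Ccr3 stood at -1.67 (adjusted p = 0.1796 for ICH in Adrb3-/-). The numbers were shared labels only, and 0 of 11 libraries correlated best with their own number.

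Leaving out 1 library at a time, the genes passing ran from 0 to 49 between genotypes after ICH (49 without Adrb3-/- ICH replicate 3, 5 without replicate 1), 0 to 1 after sham, 0 to 50 for ICH in Adrb3-/- (50 without Adrb3-/- ICH replicate 3, 23 without replicate 1, 3 without replicate 2, 2 without Adrb3-/- sham replicate 1, and 0 without Adrb3-/- sham replicate 2 or 3 or any 1 wild-type ICH library), 0 to 1 for ICH in wild type and 0 to 1 for the interaction. After sham, Epx ran from -2.29 to 0.41, Prg2 from -1.86 to 0.60, Prg3 from -1.69 to -0.22 and Ccr3 from 0.55 to 1.67. For ICH in Adrb3-/-, Ccr3 ran from -1.86 to -1.33. For ICH in wild type the ranges were -1.11 to 1.59 for Epx, -0.72 to 1.74 for Prg2, -0.51 to 0.96 for Prg3 and -0.34 to 0.78 for Ccr3. For the interaction they were -2.10 to 0.59, -2.62 to -0.15, -1.24 to 0.22 and -2.46 to -1.33 in the same order. These extremes of the changes came without wild-type sham replicate 2 or 3, except the range of Ccr3 for ICH in Adrb3-/-, set by Adrb3-/- sham replicates 1 and 3. Where a group kept 1 library, it was assumed to vary like the others. Of the 5 genes most like Prg2, 2 were shared with the 5 found within groups, and 3 for Ccr3. Background limits Epx, Prg3 and Ccr3 in Adrb3-/- ICH replicate 1, and depth limits them in replicate 2.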
